A study of Mus musculus with 6 samples.

Results

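The binding of ZFP57 and KAP1 was examined at 10 genes that encode the ZFP57–KAP1 repressor and the DNA methylation machinery with which it works: *Zfp57*, *Trim28* (which encodes KAP1), *Setdb1*, *Cbx5*, *Dnmt1*, *Uhrf1*, *Dnmt3a*, *Dnmt3b*, *Dnmt3l* and *Dppa3*. They were chosen for the function of their products, with earlier results of these data known, out of the 22367 protein-coding genes of the GENCODE M1 annotation on chromosomes 1 to 19, X and Y. A peak was assigned to a gene when it overlapped the gene body or the 10 kb on either side of it in the mm9 assembly. The data were ChIP-seq peak lists from 2 male mouse embryonic stem cell (ESC) lines, each derived from an F1 hybrid of the strains JF1 and B6. JB1 came from the JF1 x B6 cross and BJ1 from the reciprocal B6 x JF1 cross, and both were grown without feeder cells on gelatin with serum and LIF. Each line gave 1 ZFP57 library, 1 KAP1 library and 1 input library, and the 2 inputs were not analysed here. The labels name no deletion and no treatment in either line. The crosses differ in parental direction, but each is represented by 1 line, so cross, line and library cannot be told apart, and no test between lines was possible. All values are therefore descriptions of single libraries. Peak lists hold no expression values, so the ESC identity of the lines could not be checked against marker genes.

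The 4 lists differed widely in size. ZFP57 gave 10667 peaks in JB1 and 1318 in BJ1, while KAP1 gave 38713 in JB1 and 72535 in BJ1. Only 576 of the JB1 ZFP57 peaks (5.40%) overlapped a BJ1 ZFP57 peak, and 43.6% of the BJ1 ones overlapped a JB1 peak. The paper retained only ZFP57 peaks that coincided with KAP1 sites and occurred in both lines, a filter not applied to the lists used here. The median width was 450 bp in both ZFP57 lists and 600 bp in both KAP1 lists. The lists carry positions only, with no height, read count or P-value, so the depth of each library is unknown and the absence of a peak cannot be told apart from enrichment too weak to be called.

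ZFP57 is a Krüppel-associated box (KRAB) zinc-finger protein that binds its motif when the DNA is methylated and is known for holding DNA methylation at imprinting control regions in ESCs and early embryos. It recruits KAP1, a scaffold for SETDB1, which trimethylates lysine 9 of histone H3, and for heterochromatin protein 1, of which *Cbx5* encodes the alpha form. DNMT1 copies CpG methylation at replication with the help of UHRF1, DNMT3A and DNMT3B place new methylation with the cofactor DNMT3L, and DPPA3 (Stella) protects maternal methylation from oxidation after fertilization.

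The sequences below are those on which the results turn: the middle 300 bases of the only JB1 interval called at these genes, which was also called in BJ1 (*Trim28*), the stretch of the peak inside *Zfp57* itself that lies outside annotated untranslated regions (UTRs), the single ZFP57 motif under a *Setdb1* peak, and the parts outside UTRs, at most 300 bases long, of the KAP1 peaks that cover a start of *Dnmt1* and of *Dnmt3a*, with the motif cluster under each of these peaks. The stretches of *Zfp57* and *Dnmt1* do not reach the start under the peak. They were read 5′ to 3′ on the strand of the gene from the mm9 genome. Capitals mark each copy of TGCCGC, the hexamer bound by ZFP57, or of its variant GGCCGC, on either strand (GCGGCA and GCGGCC on the other strand). Where copies overlap, as in GCGGCCGC, each strand holds 1 copy of GGCCGC.
Trim28 3′ flank, chr7:13616626-13616925, plus strand: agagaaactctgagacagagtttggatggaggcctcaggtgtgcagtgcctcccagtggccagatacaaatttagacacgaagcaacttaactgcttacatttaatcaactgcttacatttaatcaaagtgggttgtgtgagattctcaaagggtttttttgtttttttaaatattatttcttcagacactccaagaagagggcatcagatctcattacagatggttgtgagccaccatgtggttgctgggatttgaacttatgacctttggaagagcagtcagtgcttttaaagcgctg
Zfp57 part of the peak, chr17:37139101-37139396, plus strand: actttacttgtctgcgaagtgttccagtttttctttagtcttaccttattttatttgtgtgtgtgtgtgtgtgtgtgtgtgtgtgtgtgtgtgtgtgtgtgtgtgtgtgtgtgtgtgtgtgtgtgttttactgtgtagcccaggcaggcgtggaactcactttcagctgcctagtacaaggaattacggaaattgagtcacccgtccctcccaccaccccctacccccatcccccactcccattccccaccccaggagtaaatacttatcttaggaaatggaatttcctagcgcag
Setdb1 intron, chr3:95147417-95147496, minus strand: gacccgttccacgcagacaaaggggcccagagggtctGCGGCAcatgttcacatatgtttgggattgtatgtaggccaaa
Dnmt1 part of the peak, chr9:20757451-20757750, minus strand: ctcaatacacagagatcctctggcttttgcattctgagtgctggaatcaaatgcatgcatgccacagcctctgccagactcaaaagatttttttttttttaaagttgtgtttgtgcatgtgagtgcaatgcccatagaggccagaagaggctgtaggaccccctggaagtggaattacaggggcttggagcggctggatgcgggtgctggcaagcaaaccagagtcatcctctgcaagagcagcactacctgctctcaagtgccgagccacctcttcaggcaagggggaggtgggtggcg
Dnmt1 cluster, chr9:20757064-20757077, minus strand: cctGCGGCCGCtga
Dnmt3a part of the peak, chr12:3806251-3806526, plus strand: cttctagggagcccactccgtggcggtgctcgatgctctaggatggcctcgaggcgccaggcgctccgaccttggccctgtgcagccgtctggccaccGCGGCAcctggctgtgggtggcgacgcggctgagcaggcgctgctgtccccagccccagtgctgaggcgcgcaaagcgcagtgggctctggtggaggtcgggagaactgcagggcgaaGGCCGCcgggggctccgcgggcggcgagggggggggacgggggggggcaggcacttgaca
Dnmt3a cluster, chr12:3806629-3806670, plus strand: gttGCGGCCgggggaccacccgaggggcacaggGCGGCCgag

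No ZFP57 peak was called within 10 kb of any of the 10 genes in either line. In JB1, 0 of 10 had one, where 12.1% of all protein-coding genes did and 9.58% of those in the members' length range. In BJ1, 0 of 10 had one, against 3.04% of coding genes. At these shares, a count of 0 among 10 is not far from what the whole annotation gives in either line. No member had a ZFP57 peak within 1 kb of an annotated transcript start, which held for 0.823% of coding genes in JB1 and 0.25% in BJ1. It follows that no member had a ZFP57 peak shared by both lines (1.51% of coding genes) or a ZFP57 peak on a KAP1 peak of the same line (6.84% in JB1 and 1.82% in BJ1). The gene that encodes ZFP57 was among them: neither line had a ZFP57 peak at *Zfp57*, and the closest lay 372 kb upstream of the gene in JB1 and 516 kb upstream in BJ1.

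**Figure D1:**
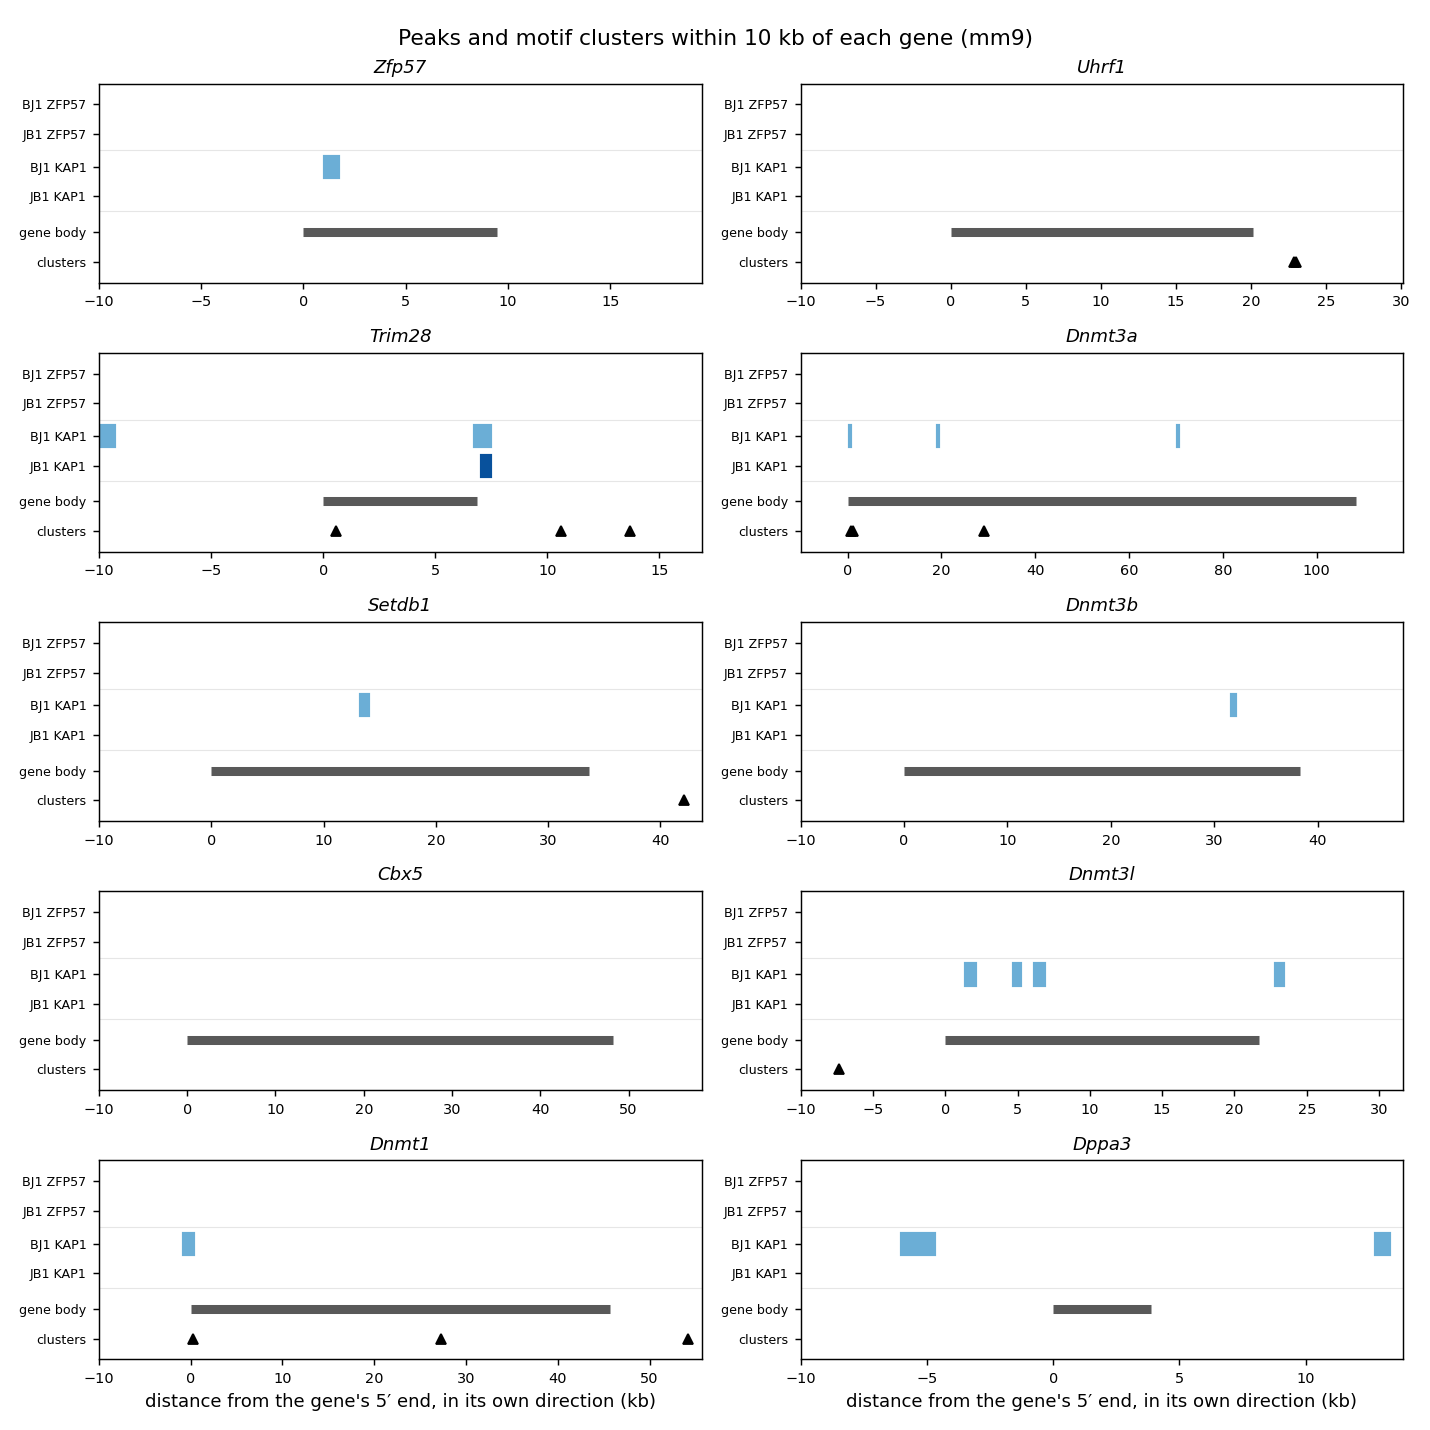
Peaks and motif clusters around the 10 genes. The x axis of each panel is the distance from the gene's 5′ end in kb, in the direction of transcription, over the gene body and 10 kb on either side; each row is 1 peak list, the grey bar is the gene body and triangles mark clusters of ZFP57 motifs. The ZFP57 rows are empty in all 10 panels, the JB1 KAP1 row holds 1 peak at *Trim28*, and the BJ1 KAP1 row holds 15 peaks at 8 genes.

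The nearest ZFP57 peak lay farther from the members than from coding genes at the median in JB1, and slightly nearer in BJ1. Both medians of the members lay between the quartiles of coding genes, 37.6 and 275 kb in JB1 and 240 and 1475 kb in BJ1. In JB1 the gap ranged from 87.7 kb at *Dnmt3a* to 1425 kb at *Dnmt3b*, with a median of 246 kb over the 10 genes, against a median of 118 kb over all coding genes. In BJ1, whose ZFP57 list was shorter, it ranged from 103 kb at *Uhrf1* to 1259 kb at *Setdb1*, with a median of 605 kb against 663 kb. *Dnmt3l* stood close to *Dnmt3a* in JB1, with a gap of 88.8 kb. For only 2 genes, *Trim28* and *Uhrf1*, was the nearest ZFP57 peak the same interval in both lines. That of *Trim28* lay 280 kb downstream of the gene, across the annotated end of *Lig1*, touching its coding sequence and reaching past the gene. *Lig1* encodes DNA ligase 1 and belongs to the wider pathway described below. That of *Uhrf1* lay 103 kb upstream, inside *Dpp9*, a gene named here after its position was seen.

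**Figure D2:**
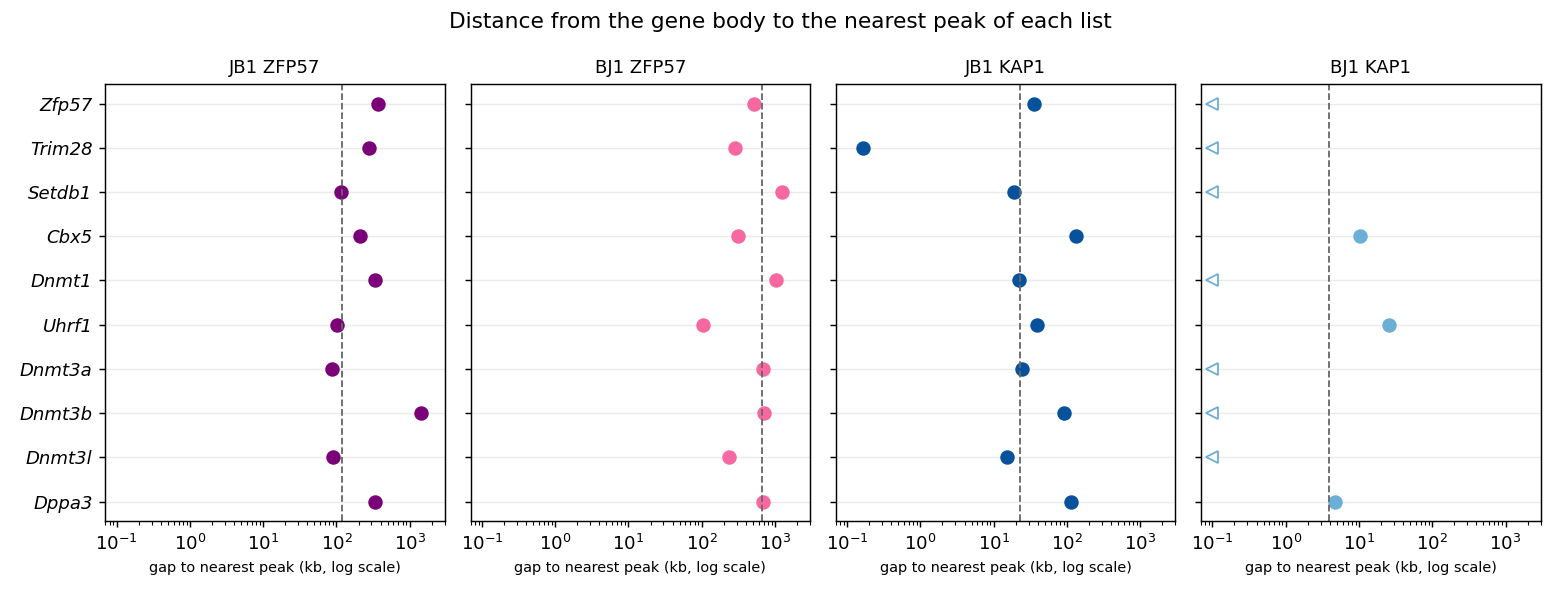
Gap between each gene body and the nearest peak of each list, in kb on a log axis, with 1 panel for each list. Filled circles are gaps above 0, open triangles at the left edge mark a peak that overlaps the gene body (a gap of 0), and the dashed line is the median over all coding genes; all gaps to ZFP57 peaks are 87.7 kb or more, and 7 of the 10 genes carry a BJ1 KAP1 peak over the gene body.

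KAP1 was called at most of the genes in BJ1 and at 1 of them in JB1. In BJ1, 8 of 10 had a KAP1 peak (64.5% of coding genes), and the 8 held 15 peaks. The peak overlapped the gene body itself in 7 of 10, compared with 39.1% of coding genes. That share does not allow for gene length, and the members' gene bodies were longer, with a median of 27.7 kb against 15.4 kb. In JB1, only *Trim28* had one (1 of 10, against 34.4% of coding genes). *Trim28* was also the only member with a KAP1 peak shared by both lines, which 31.5% of coding genes had. Both JB1-based counts fell to 0 with the gene body only and with only the peaks of at least 750 bp, and the latter left 8 of the 15 BJ1 peaks. Over the 0.536 Mb of the members' windows, BJ1 KAP1 peaks occurred at 28.0 per Mb, close to the 24.3 per Mb of all coding-gene windows, while JB1 KAP1 peaks occurred at 1.86 per Mb against 10.5 per Mb. The rate in BJ1 was thus near that of coding genes in general, and the rate in JB1 was lower.

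KAP1 peaks were present in the wider surroundings of the genes in JB1. The nearest JB1 KAP1 peak lay at a median of 30.1 kb from the gene body, compared with 22.8 kb for all coding genes. It was closest at *Trim28*, at 0.167 kb, followed by *Dnmt3l* at 15.0 kb, and farthest at *Cbx5*, at 132 kb. With the window widened to 50 kb on either side, an alternative added after the data were seen, 7 of the 10 genes had a JB1 KAP1 peak, and so did 69.8% of coding genes.

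**Figure D3:**
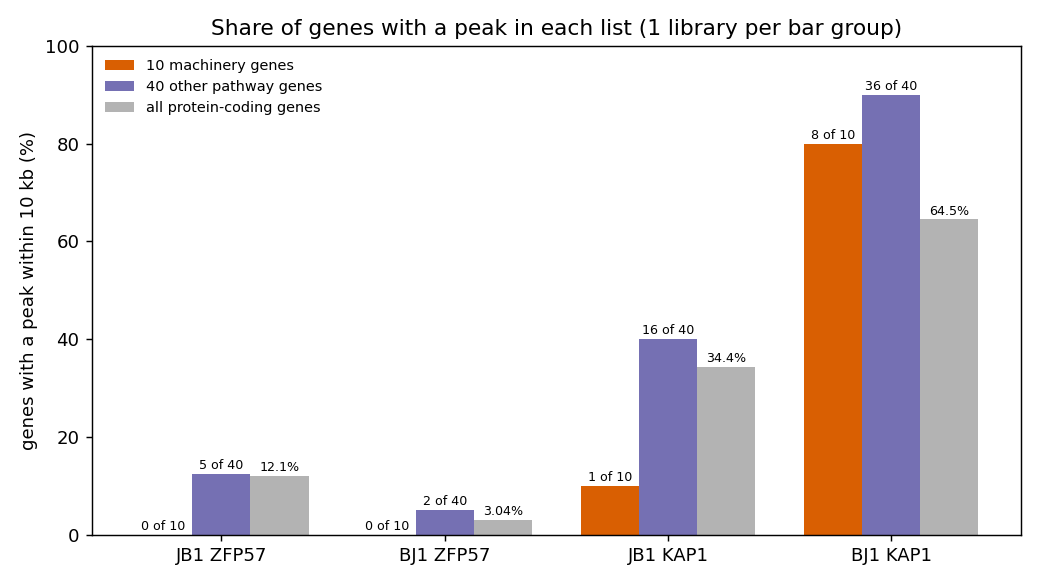
Percentage of genes with a peak in the gene body or within 10 kb of it (y axis), for each of the 4 lists (x axis), in the 10 genes, in 40 other genes of the same pathways and in all protein-coding genes. Labels above the bars give the counts or, for coding genes, the percentage; the 10 genes are at 0 in both ZFP57 lists, at 1 of 10 in JB1 KAP1 and at 8 of 10 in BJ1 KAP1.

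Among the repressor genes, *Zfp57* (chr17:37138108-37147580) had 0 KAP1 peaks in JB1 and 1 in BJ1. The BJ1 peak was 750 bp wide (chr17:37139101-37139850) and lay 1.37 kb inside the gene, over an annotated transcript start and annotated UTR sequence. Its GC content was 57.1%, and it held neither motif hexamer. Of the 296 bases outside UTRs shown above, 70 form an unbroken run of alternating T and G. JB1 had no KAP1 peak nearer than 35.5 kb from the gene, so the 2 lines disagreed at *Zfp57*.

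*Trim28*, a compact gene of 6.88 kb (chr7:13609501-13616384), carried 1 KAP1 peak in JB1 and 2 in BJ1. The JB1 peak was 450 bp wide (chr7:13616551-13617000) and began 0.167 kb past the annotated 3′ end of the gene. The BJ1 peak at the same place was 750 bp wide (chr7:13616251-13617000), contained the JB1 interval whole and reached back into the UTR at the gene's 3′ end. Both held few CpG sites, 3 in the JB1 interval and 7 in the BJ1 one, and neither held a ZFP57 motif. They counted as peaks at a start only because a short transcript of *Trim28* is annotated as starting at position 13615721 near the 3′ end, and no peak of any list lay within 1 kb of the gene's own 5′ end. The other BJ1 peak (chr7:13599451-13600200, 750 bp) straddled the upstream edge of the 10 kb window.

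*Setdb1* (chr3:95127447-95161124), the H3K9 methyltransferase gene, had 1 KAP1 peak in BJ1 and 0 in JB1. It was 750 bp wide, lay in an intron 13.6 kb from the 5′ end (chr3:95147101-95147850) and contained 1 TGCCGC hexamer. *Cbx5* (chr15:103021975-103070247) had no KAP1 peak in either line. Its nearest BJ1 KAP1 peak lay 10.4 kb upstream of the gene, just outside the window. The repressor genes therefore ranged from no KAP1 peak in either line to a peak in both.

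Of the maintenance genes, *Dnmt1* (chr9:20711650-20757317) had 1 KAP1 peak in BJ1 and 0 in JB1. The BJ1 peak was 1200 bp wide (chr9:20757001-20758200) and spanned the only annotated start of the gene together with coding sequence. It contained 54 CpG sites and 3 copies of GGCCGC, 2 of which overlap in the cluster shown above, 243 bp inside the gene, and no TGCCGC. Only 13.7% of all BJ1 KAP1 peaks were at least as wide. The closest JB1 KAP1 peak was 22.3 kb downstream of the gene. *Uhrf1* (chr17:56442744-56462909) had no KAP1 peak in either line, with the nearest 38.8 kb away in JB1 and 25.8 kb away in BJ1. The pair that maintains CpG methylation thus differed in the BJ1 list and was alike in JB1, where neither had a peak.

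The de novo genes held 8 of the 15 BJ1 peaks and no JB1 peak. *Dnmt3a* is the longest of the 10 genes, at 108 kb (chr12:3806007-3914443), and had 3 peaks in BJ1. The first (chr12:3806251-3806700, 450 bp) lay 0.469 kb from the 5′ end, over an annotated start and annotated UTR sequence, and the other 2 (chr12:3825151-3825600 and chr12:3876151-3876750) lay in introns. With a GC content of 74.7%, the first was among the most GC-rich intervals of the list, as 0.0207% of BJ1 KAP1 peaks were at least as GC-rich. It held 1 TGCCGC and 3 GGCCGC copies, of which 2 formed the cluster shown above. *Dnmt3b* (chr2:153475186-153513466) had 1 intronic BJ1 peak of 450 bp (chr2:153506851-153507300), 31.9 kb from its 5′ end, with 2 CpG sites and no motif. Its nearest JB1 KAP1 peak was 90.1 kb away.

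*Dnmt3l* (chr10:77504692-77526367) carried 4 BJ1 KAP1 peaks, the highest number among the 10 genes, in a gene body of 21.7 kb. Of these, 3 were intronic (chr10:77506051-77506800, chr10:77509351-77509950 and chr10:77510851-77511600) and 1 lay downstream (chr10:77527501-77528100). The first also covered a transcript start of the neighbouring gene *Aire*, the autoimmune regulator, and cannot be assigned to *Dnmt3l* rather than to *Aire*. The third lay 987 bp from an internal start of *Dnmt3l* and held 2 GGCCGC copies that were too far apart to form a cluster. *Dppa3* is the shortest of the genes, at 3.86 kb (chr6:122576428-122580290), and had 2 BJ1 peaks and no JB1 peak. Both lay outside the gene body, 1 upstream with its midpoint at -5.35 kb from the 5′ end (chr6:122570401-122571750) and 1 downstream (chr6:122589151-122589750). The upstream peak was 1350 bp wide, the widest of the 15, and held 7 CpG sites and no motif.

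KAP1 lay within 1 kb of an annotated transcript start of 5 of the 10 genes in BJ1 (*Zfp57*, *Trim28*, *Dnmt1*, *Dnmt3a* and *Dnmt3l*), compared with 16.5% of coding genes. In JB1 this was the case for 1 of 10, *Trim28*, against 4.61% of coding genes. The count depends on the annotation of internal starts. When only the outermost 5′ end of each gene was used, 3 members had a peak within 1 kb of it in BJ1 and 0 in JB1, against 12.4% and 3.32% of coding genes. Within 500 bp of any start the numbers were again 3 and 0, against 13.5% and 3.6% of coding genes.

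The 15 BJ1 peaks were 450 to 1350 bp wide, with a median of 750 bp, and covered 10800 bp in all. Each was given 1 class, coding sequence taking precedence over UTR and UTR over intron. By this order 1 was classed as coding sequence, 3 as UTR, 7 as intron, 2 as upstream and 2 as downstream. Peaks over a start of a coding transcript differed in base composition from the rest. The 4 such peaks (*Zfp57*, *Dnmt1*, the first of *Dnmt3a* and the first of *Dnmt3l*) had a GC content of 56.5% to 74.7% and a ratio of observed to expected CpG of 0.556 to 0.725. In the other 11, GC content was 42.8% to 49.8% and the CpG ratio 0.0378 to 0.268, so the ranges did not overlap. The same division was seen in BJ1 KAP1 peaks of all coding-gene windows, where the median GC content was 57.8% in the 2029 peaks over a start and 47.3% in the 28506 others. The first *Dnmt3a* peak lay above, and the *Setdb1* peak below, the middle 50% of peaks of their kind, and the others lay within it.

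**Figure D4:**
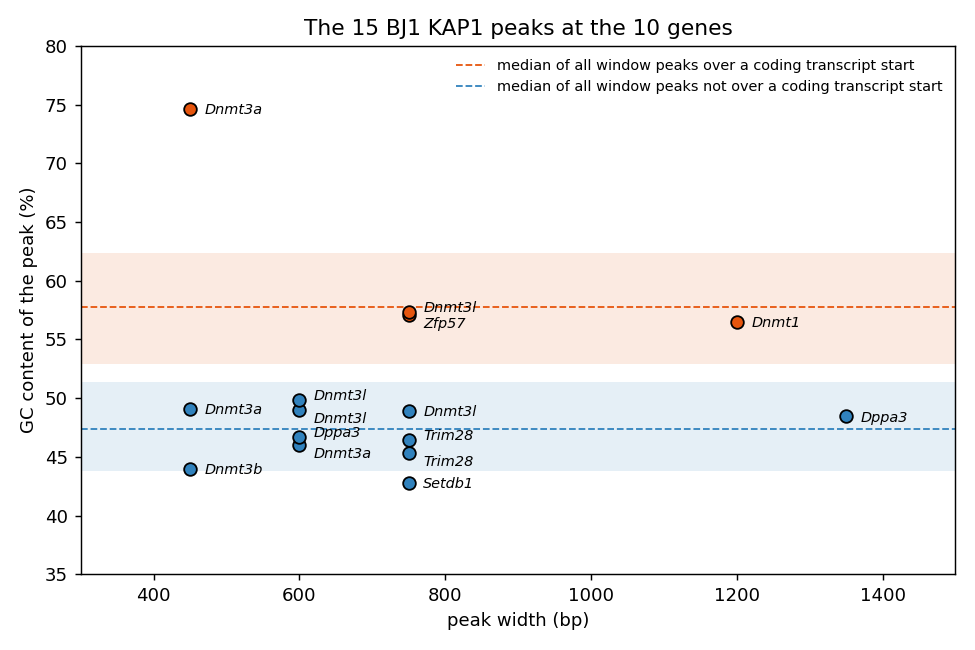
GC content (y axis, %) against width (x axis, bp) of the 15 BJ1 KAP1 peaks, each point labelled with its gene. Orange points lie over a coding transcript start and blue points do not; dashed lines and bands give the median and the middle 50% of all BJ1 KAP1 peaks of the same kind in coding-gene windows. The 4 orange points lie at or above 56.5% and the 11 blue points at or below 49.8%.

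Only 1 of the 15 BJ1 peaks, that at the 3′ end of *Trim28*, overlapped a JB1 KAP1 peak. This is 6.67%, where 36.7% of the 30535 BJ1 KAP1 peaks in coding-gene windows and 45.3% of the whole BJ1 list overlapped one. In the coding-gene windows, that share rose with width, from 15.3% of peaks of 450 bp to 31.3% at 600 bp, 48.8% at 750 bp and 68.4% at 1200 bp. Of the members' peaks, 3 were 450 bp wide, 4 were 600 bp, 6 were 750 bp and 2 were wider than 1 kb. Neither of the 2 widest, at *Dnmt1* and upstream of *Dppa3*, had a JB1 counterpart. Peaks over a start also overlapped JB1 peaks less often in the coding-gene windows, at 24.3% against 37.6% of the others, and 26.7% of the members' peaks were over a start compared with 6.64% of all window peaks. The part of width, position and list size in the difference between the lines was not tested.

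The windows of the 10 genes held 188 copies of the 2 hexamers, 71 of them TGCCGC, yet no ZFP57 peak. The number ranged from 1 at *Zfp57* and 3 at *Dppa3* to 50 at *Dnmt3a*. Clusters of at least 2 copies within 38 bp were found in 13 places at 6 members (*Trim28*, *Setdb1*, *Dnmt1*, *Uhrf1*, *Dnmt3a* and *Dnmt3l*), and 43.3% of coding genes had such a cluster in the same window. Of the 13, 4 lay within 1 kb of a start of the member and 6 within 1 kb of a start of a neighbouring coding gene instead, among them the only cluster of *Setdb1* and both of *Uhrf1*. The largest, with 7 copies, lay in coding sequence of *Trim28* (chr7:13610034-13610130), 0.581 kb from its 5′ end. No cluster at the members was under a ZFP57 peak of either line or under a JB1 KAP1 peak, and 2 were under a BJ1 KAP1 peak, those at the starts of *Dnmt1* and *Dnmt3a*. Across the genome, 4.23% of 16156 clusters lay under a JB1 ZFP57 peak, 1.39% under a BJ1 ZFP57 peak, 13.7% under a JB1 KAP1 peak and 16.7% under a BJ1 KAP1 peak. A cluster without a ZFP57 peak was thus the usual case.

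In the promoter, taken as 250 bp before to 50 bp after the 5′ end, TGCCGC occurred at *Trim28* and *Cbx5* and neither hexamer occurred at the other 8 genes. TGCCGC was found in 13.6% of the promoters of all coding genes, and either hexamer in 31.6%. Of the 15 BJ1 KAP1 peaks, 4 held a hexamer and 2 held TGCCGC (*Setdb1* and the first of *Dnmt3a*), compared with 20340 and 14514 of the 72535 peaks of the whole BJ1 KAP1 list. In the ZFP57 lists, 52.4% of JB1 peaks and 49.1% of BJ1 peaks held a hexamer.

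ZFP57 peaks at other genes of the same pathways were about as frequent as at coding genes in general. Of 40 genes that encode partners of KAP1 and H3K9 methylation, readers and maintenance factors of DNA methylation, and demethylation enzymes, 5 had a ZFP57 peak in JB1 (12.1% of coding genes) and 2 of these also in BJ1 (3.04%). The 2 with a peak shared by both lines were *Lig1* and *Smarcad1*, a chromatin remodeller. At *Lig1*, which seals nicks in newly replicated DNA, both lines had the same interval (chr7:13896601-13897200, 600 bp), which held 2 TGCCGC hexamers and lay on a KAP1 peak in each line, 900 bp wide in JB1 and 1050 bp in BJ1. At *Smarcad1* the intronic peaks began at the same position and were 750 bp wide in JB1 (chr6:65020651-65021400) and 600 bp wide in BJ1 (chr6:65020651-65021250), each with 1 TGCCGC and 1 GGCCGC and each on a KAP1 peak.

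In JB1 alone, ZFP57 peaks lay 8.49 kb from *Ehmt1* and 8.35 kb from *Suv39h2*, both encoding H3K9 methyltransferases, and at *Zfp445*, a KRAB zinc-finger gene whose product also acts at imprinting control regions. Calls in JB1 alone were the usual case: in coding-gene windows, 8.13% of JB1 ZFP57 peaks overlapped a BJ1 one. *Zfp445* had 2, 1 intronic (chr9:122764201-122764500) and 1 downstream (chr9:122754151-122754600). The peak of *Suv39h2* (chr2:3400651-3401100) and the intronic one of *Zfp445* lay on JB1 KAP1 peaks, while that of *Ehmt1* (chr2:24637501-24637800) and the downstream one of *Zfp445* did not. None of the 40 genes had a ZFP57 peak within 1 kb of a transcript start in either line. ZFP57 was therefore called on KAP1 at 4 of the 40 genes in JB1 and at 2 in BJ1, where 6.84% and 1.82% of coding genes had such a peak.

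KAP1 peaks were found at 16 of the 40 genes in JB1 and at 36 in BJ1, and all 16 had a peak shared by both lines. Among coding genes the shares were 34.4% in JB1, 64.5% in BJ1 and 31.5% for a shared peak, so the JB1 count of the 40 was near that of coding genes. Of the 20 genes for KAP1 partners and H3K9 methylation, 9 had a KAP1 peak in JB1 and 17 in BJ1. Of the 12 readers and maintenance factors, 5 and 11 had one, and of the 8 demethylation genes, 2 and 8. Within 1 kb of a start, KAP1 was called at 4 of the 40 in JB1 and at 13 in BJ1, against 4.61% and 16.5% of coding genes. Set beside the 40 others, the 10 members were at 8 of 10 against 36 of 40 in the BJ1 KAP1 list and at 1 of 10 against 16 of 40 in the JB1 KAP1 list, values that 1 library per line leaves without a test. The members' gene bodies had a median length of 27.7 kb, compared with 15.4 kb for all coding genes.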

How the data were processed

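ChIP-seq for ZFP57 and KAP1 was performed by the authors in JB1 and BJ1 ESCs, with 50 bp single-end reads whose adaptors were trimmed in CASAVA and whose low-quality reads were filtered with Trim Galore, aligned to mm9 allowing up to 2 mismatches, and peaks called by MACS at P-values below 1e-05. The submitters' processing notes name CASAVA 1.8.2, Bowtie 0.12.7, SAMtools 0.1.18 and bedtools 2.14.3-1; whether the input served as the MACS control is not given in the sources used here. The labels and the methods differ in the serum content of the medium. The deposited lists give chromosome, start and end on a 150 bp grid, so peak edges are known no more finely than that grid, and 1 list was made per library without pooling.

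Groups were taken from the sample titles. Peaks overlapping a gene body or its 10 kb flanks by at least 1 bp were counted for the 10 genes, for 40 other pathway genes and for 22367 coding genes (GENCODE M1, mm9) with Python 3.11.15, numpy 2.4.6 and pysam 0.24.0, and figures were drawn with matplotlib 3.10.9. Starts are all annotated transcript starts. Both hexamers were searched on both strands, and copies within 38 bp were joined into clusters. The members and lists were chosen with earlier results of these data known. All 10 members are named, neighbouring genes where a member peak lies within 1 kb of their start, and other pathway genes where ZFP57 was called. Window counting and clustering were tested on simulated data before use. No test was run, since each line and antibody has 1 library. The flank, the width filter, the start definition and the motif were varied.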

Additional observations from a re-analysis of the deposited data

How the results depend on the processing

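Of 72 alternative values for 24 results, 54 kept the main value (a count within 1.5 times of it, a percentage of coding genes within its 95% binomial interval). Of these, 33 were ZFP57 counts at the members with a flank of at most 10 kb. All 33 lie within the 10 kb windows, which held no ZFP57 peak, so their value of 0 was fixed in advance. With the gene body only, or with only the wider peaks of each list (at least 450 bp in BJ1 ZFP57, 600 bp in JB1 ZFP57 and 750 bp in both KAP1 lists, which kept 36.1% to 57.4% of a list), members with a JB1 KAP1 peak, JB1 KAP1 peaks at the members and members with a shared KAP1 peak each went from 1 to 0, and BJ1 KAP1 peaks at the members went from 15 to 8 with the latter. Within 50 kb, an alternative chosen after the data were seen, 7 members had a JB1 KAP1 peak and 0 had a ZFP57 peak in either line, against 29.9% of coding genes for JB1 ZFP57 and 7.30% for BJ1 ZFP57. Start-site KAP1 counts went from 5 to 3 in BJ1 and from 1 to 0 in JB1, both within 500 bp and with the outermost 5′ end only. Peaks of BJ1 KAP1 with TGCCGC alone numbered 2, against 4 with either hexamer. Among coding genes in the members' length range, 9.58% had a JB1 ZFP57 peak, 2.40% a BJ1 ZFP57 peak, 32.3% a JB1 KAP1 peak and 66.002% a BJ1 KAP1 peak, and among autosomal genes 65.2% had a BJ1 KAP1 peak. The cause of these shifts was not tested beyond the smaller or larger windows and lists that define them. Since no replicate exists, no library could be left out, and no paired analysis was possible because no result comes from a test and each group has 1 sample. Depth is unknown, so a missing peak sets no upper limit on binding.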
